A study of Mus musculus with 4 samples.

Results

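Cone opsins and the cone phototransduction genes are described here across the cells of mouse retina. The set holds 9 genes, Opn1sw, Opn1mw, Arr3, Pde6c, Pde6h, Gnat2, Gngt2, Cnga3 and Cngb3, taken by symbol from the 32285 genes of each count matrix, and each symbol was found in all 4 libraries. The libraries came from NLGF mice (1 female, 1 male) and wild-type (WT) mice (1 female, 1 male), each from 1 dissociated retina taken at postnatal day 30 and run on the droplet-based 10x Genomics platform. NLGF is the name of a knock-in allele of App, the amyloid precursor protein gene, with a humanised and mutated amyloid beta stretch, and the labels say nothing of zygosity, strain background or litter. With 2 animals per genotype, the spread between libraries holds animal, sex and preparation differences together.

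Cones are the photoreceptors of daylight and colour vision. Light bleaches an opsin, which activates the cone transducin made of Gnat2 (alpha), Gnb3 (beta) and Gngt2 (gamma). Transducin lifts the inhibition that the gamma subunit Pde6h places on the catalytic phosphodiesterase subunit Pde6c, cyclic GMP falls, and the channel built from Cnga3 and Cngb3 closes. Arr3, cone arrestin, ends the signal by binding the activated opsin. Most mouse cones make both the short-wavelength (S) opsin Opn1sw and the middle-wavelength (M) opsin Opn1mw, in proportions that follow a gradient between ventral and dorsal retina, and thyroid hormone receptor beta (Thrb) is needed for M opsin.

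The RefSeq promoter windows of the 2 opsins, which define the cone classes used below, and of Arr3, the member that differed most between those classes, are printed 5′ to 3′ along the gene's strand (GRCm38.p6, 250 bases before to 50 after the annotated start). Capitals mark matches to TAATC, the core letters bound by the photoreceptor factors CRX and OTX2, or to its reverse complement GATTA, with no overlap between matches. The windows are chr6:29380464-29380763 (minus strand) for Opn1sw, chrX:74127216-74127515 (plus strand) for Opn1mw and chrX:100605247-100605546 (plus strand) for Arr3.
Opn1sw: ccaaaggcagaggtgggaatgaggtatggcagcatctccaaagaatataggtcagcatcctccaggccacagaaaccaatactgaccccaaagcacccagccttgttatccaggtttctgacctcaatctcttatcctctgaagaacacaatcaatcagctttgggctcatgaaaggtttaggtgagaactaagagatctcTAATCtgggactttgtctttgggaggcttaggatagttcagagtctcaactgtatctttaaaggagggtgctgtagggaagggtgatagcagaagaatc
Opn1mw: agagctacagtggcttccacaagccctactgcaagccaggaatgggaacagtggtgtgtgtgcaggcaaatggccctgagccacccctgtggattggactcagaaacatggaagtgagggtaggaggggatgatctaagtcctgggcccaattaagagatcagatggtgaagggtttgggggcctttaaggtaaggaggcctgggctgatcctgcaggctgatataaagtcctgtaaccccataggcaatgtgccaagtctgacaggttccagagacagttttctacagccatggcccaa
Arr3: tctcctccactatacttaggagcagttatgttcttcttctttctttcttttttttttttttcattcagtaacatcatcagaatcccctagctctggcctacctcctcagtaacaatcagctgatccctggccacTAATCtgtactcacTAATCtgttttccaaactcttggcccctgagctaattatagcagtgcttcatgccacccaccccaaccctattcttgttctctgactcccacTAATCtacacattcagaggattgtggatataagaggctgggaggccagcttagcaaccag
Opn1sw held 1 match, Opn1mw none and Arr3 3, all on the gene's own strand. Among the other members with a window, Gnat2 held 1 match and Pde6h and Cnga3 none, and 6 of the 9 members had a window. Of all 32851 windows of this length, 22% held at least 1 match, 3.94% at least 2 and 0.658% at least 3. A match is a run of letters and says nothing of binding.

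Opn1mw and Arr3 lie on the X chromosome, Opn1sw and Pde6h on chromosome 6, Cnga3 on 1, Gnat2 on 3, Cngb3 on 4, Gngt2 on 11 and Pde6c on 19 (GENCODE M21, GRCm38). In that annotation several members overlap another gene, among them Opn1sw with Calu, Gngt2 with Abi3, Pde6h with Arhgdib, and Cngb3 with a pseudogene. Calu, Abi3 and Arhgdib lie on the opposite strand. The sources used here do not say whether counting used strand, so whether reads of such pairs were kept apart was not checked.

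The matrices held 35191 barcodes and 85860041 UMIs (unique molecular identifiers, each counting 1 captured transcript), with 19128388 to 23473093 UMIs per library. After filters on genes, mitochondrial share and doublets 31329 cells remained in 20 clusters, and 10 to 25 barcode sequences were shared by a pair of libraries, at most 0.309% of the smaller one. The 9 members were left out of the clustering and of the cone marker list. Cluster 11, with 647 cells and a median of 9072 UMIs, carried the name cone from 9 detected markers, among them Gnb3 (2576 CPM), Kcne2 (898 CPM), Thrb (448 CPM) and the retinoid receptor Rxrg (72.5 CPM), where CPM is UMIs per 1000000 UMIs of the class. When the members were allowed into the clustering, 674 cells were called cones and 646 of them were the same cells. Cones made up 1.91% and 2.07% of cells in the NLGF female and male, and 2.42% and 1.84% in the WT female and male. Rod transcripts also reached the cones unevenly. Rod-specific transcripts, counted over a short list, exceeded 1% of UMIs in 13 and 8 cones of the NLGF female and male, and in 16 and 1 of the WT female and male.

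All members were at their highest in the cones. The inhibitory phosphodiesterase subunit Pde6h reached 10520 and 11860 CPM in NLGF cones and 12370 and 12720 CPM in WT cones, and at least 1 Pde6h UMI was seen in 99.5% of the 647 cones. Arr3, Pde6c, Gnat2 and Gngt2 were likewise seen in 98.4% or more of cones. Cngb3 was seen in 96%, with a median of 6 UMIs per cone. Cnga3 was the most thinly sampled member, with a median of 1 UMI and a detection in 56.6% of cones, so single cones without it cannot be read as lacking it. The opsins behaved differently: 73.9% of cones had a UMI of Opn1sw and 87.2% one of Opn1mw, although the median cone held 53 and 31 UMIs of them.

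**Figure D1:**
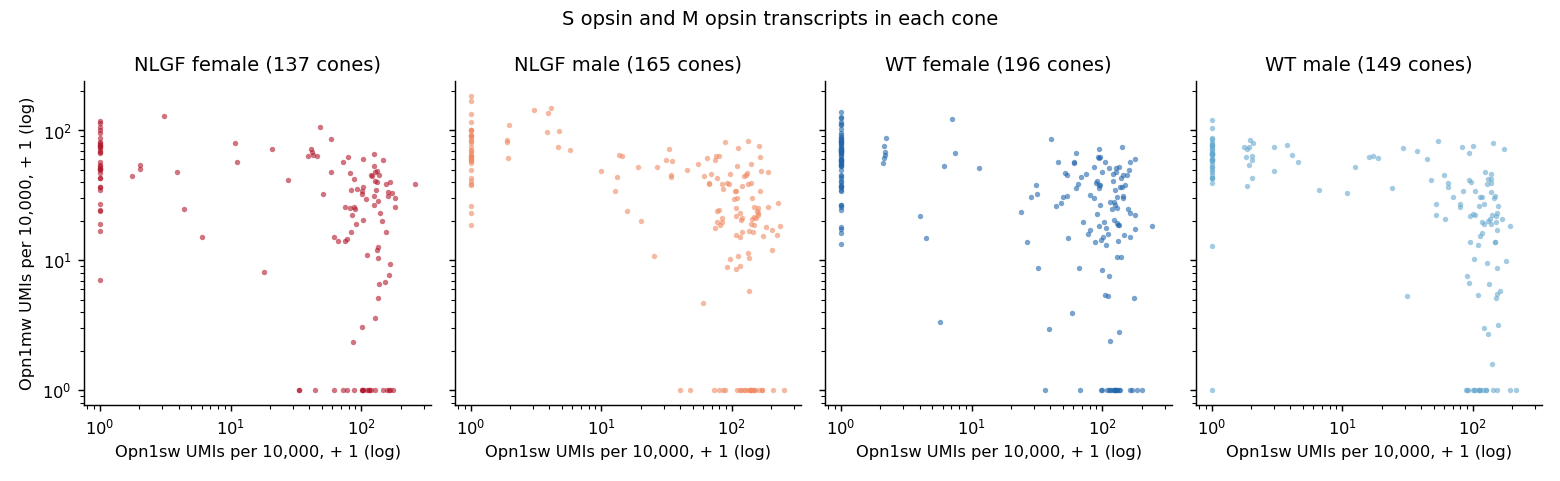
Each point is 1 cone of the library named above its panel, with Opn1sw on the horizontal and Opn1mw on the vertical axis, both as UMIs per 10000 UMIs of that cone plus 1, on log scales. In each of the 4 panels one column of cones stands at 0 Opn1sw with high Opn1mw, a second group holds both opsins with Opn1sw in excess, and a row of cones stands at 0 Opn1mw with high Opn1sw.

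The opsins were distributed over cones in a strongly uneven way. Among the 642 cones with at least 5 opsin UMIs, the M share (Opn1mw UMIs over the UMIs of both opsins) was 0.98 or more in 190 cones (29.6%), between 0.2 and 0.4 in 122 (19%), between 0.1 and 0.2 in 98, and under 0.02 in 87. Only 34 cones lay between 0.4 and 0.6 and 24 between 0.6 and 0.8. Cones were therefore divided into M-rich (M share of 0.8 or more), mixed, and S-rich (0.2 or less). The upper limit falls in a sparse stretch, with 12 cones just inside it (0.8 to 0.9) and 9 just outside (0.7 to 0.8). The lower limit cuts a dense stretch, with 100 cones just inside (above 0.1, up to and including 0.2) and 81 just outside (above 0.2, up to 0.3). The 98 counted above leave out cones at exactly 0.2 and take in those at 0.1. At this limit mixed and S-rich cones are therefore neighbouring ranges. The S-rich class itself joins the 87 cones under 0.02, with next to no Opn1mw, to cones that hold both opsins. The M share is a ratio of captured UMIs, and capture can differ between the transcripts.

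**Figure D2:**
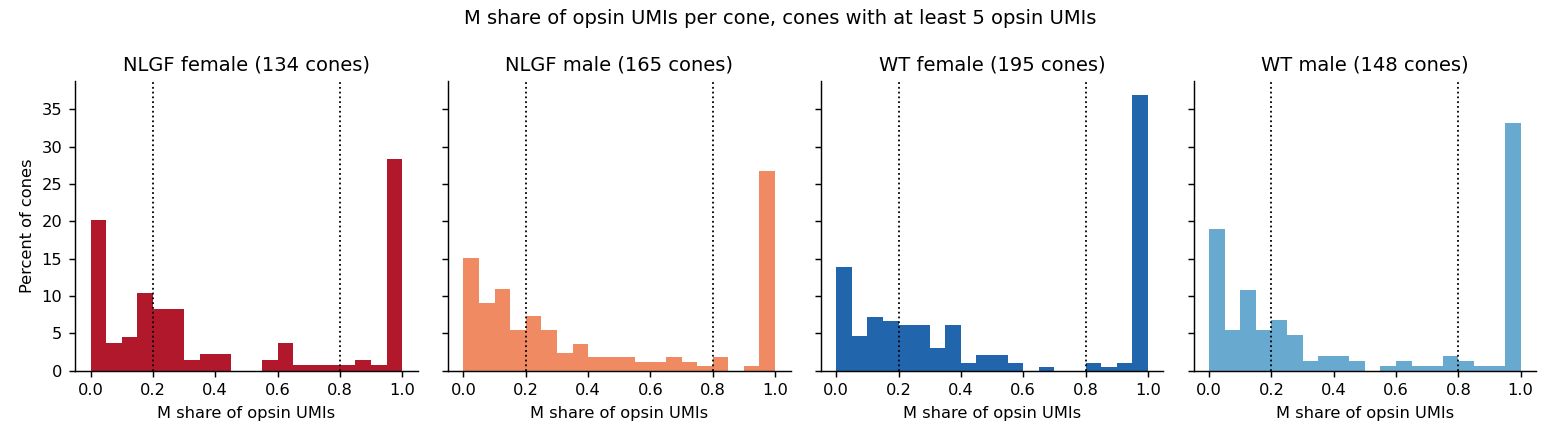
Histograms of the M share of opsin UMIs, in bins of 0.05, as a percentage of the cones with at least 5 opsin UMIs in each library (134, 165, 195 and 148 cones from left to right). Dotted lines mark the limits of 0.2 and 0.8, and all 4 libraries show a peak at the right end and a broad spread below 0.4. That spread includes 11.3% to 14.9% of cones per library with an M share under 0.02.

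As a description of the classes, M-rich cones held 6248 ± 959 CPM of Opn1mw and 85.6 ± 40.1 CPM of Opn1sw (SD, n = 4 libraries). S-rich cones held 12520 ± 644 CPM of Opn1sw and 1174 ± 82.6 CPM of Opn1mw. Mixed cones held 8192 ± 846 CPM of Opn1sw and 4370 ± 345 CPM of Opn1mw. The sums of S-rich cones thus still held Opn1mw at 1110 to 1294 CPM, while those of M-rich cones held Opn1sw at 46.2 to 124 CPM. The summed opsin level was 6334 ± 991 CPM in M-rich, 12560 ± 1081 CPM in mixed and 13690 ± 694 CPM in S-rich cones, values that the class rule touches and that are given without a test.

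Co-detection was compared after each cone was thinned to 1000 UMIs. Both opsins were detected in 46.7% of cones of the NLGF female (95% Wilson interval 38.5 to 55.1, n = 135) and 53.7% of the NLGF male (46 to 61.1, n = 164). The values were 44.4% in the WT female (37.6 to 51.4, n = 196) and 47.3% in the WT male (39.4 to 55.3, n = 148). Thinning left out 4 of the 647 cones, and without it the shares were 59.1% and 64.8% in NLGF and 56.6% and 65.1% in WT libraries. Rod bipolar cells, which lack cone opsins, have a similar depth (median 9072 UMIs in cones and 8900 in rod bipolar cells). Of 693 thinned cells 0 held both opsins, which allows a share of up to 0.433%. A cone that makes 1 opsin needs only 1 stray UMI of the other, so single-opsin shares are the nearer background. Of the same 693 cells 2 held Opn1sw and 4 held Opn1mw. Thinned rods held Opn1sw in 2.52% to 3.31% and Opn1mw in 1.53% to 2.41% of cells per library. Co-detection in cones was above these shares in each library, and the part of free RNA in it was not tested. Intervals cover counting error only.

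Within cones of a library, the opsins ran against each other, with Spearman rank correlations of their UMIs per total UMIs from -0.69 to -0.54 in the 4 libraries (127 to 175 cones with at least 3000 UMIs each). Arr3 followed Opn1mw (0.46 to 0.62) and ran against Opn1sw (-0.51 to -0.18). Gngt2 had positive values with Opn1sw (0.19 to 0.39) and with Pde6h (0.31 to 0.45). The channel subunits Cnga3 and Cngb3 gave -0.05 to 0.23, which at a median of 1 Cnga3 UMI says little. These correlations share each cone's depth and library and are descriptions.

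Outside cones the members were lower, at levels that varied between clusters. Opn1sw averaged 6797 ± 699 CPM in cones, against 38 ± 2.43 CPM in rods and 5.43 ± 3.51 CPM in rod bipolar cells (SD, n = 4). Set against Pde6h, the members did not keep one ratio. There were 0.568 Opn1sw UMIs per Pde6h UMI in cones and 0.527 to 0.655 in the 5 rod clusters, but 0.257 Arr3 UMIs in cones and 0.325 to 0.742 in rod clusters, and 0.582 Gngt2 UMIs in cones and 0.789 to 0.889 in rod clusters. Cnga3 had 0 UMIs in rod bipolar cells, where 3 counts would be 1.77 to 2.26 CPM in a library.

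Gngt2, Gnat2 and Cngb3 departed from that pattern in bipolar cells, the interneurons that carry photoreceptor signals inward. In cluster 6, named cone bipolar and led by Cck, Cnmd and Vsx1, Gngt2 reached 1079 and 1078 CPM in the NLGF female and male and 994 and 1240 CPM in the WT female and male. Opn1sw in the same cells was at 7.06 ± 3.67 CPM and Pde6h at 13.3 ± 2.24 CPM, close to the rod bipolar background. Gnat2 stood at 196 and 216 CPM in NLGF and 256 and 248 CPM in WT cells of that cluster, and Cngb3 at 0.842 ± 1.69 CPM. The ratio of Gngt2 to Pde6h UMIs was 82.7 there and 0.582 in cones.

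Cngb3 instead appeared in cluster 16, an unnamed cluster led by Cntn5 with bipolar transcripts such as Lhx4. It had 161 and 185 CPM in the NLGF and 179 and 188 CPM in the WT female and male, against 702 ± 76.5 CPM in cones, with Gnat2 at 139 ± 15.3 CPM and Gngt2 at 174 ± 21.7 CPM. Its partner subunit Cnga3 had 0 UMIs in cluster 16, where 3 counts would be 2.78 to 3.45 CPM in a library. In the cone bipolar clusters 12 and 7 all 3 transcripts were present. A few cells of these clusters carried cone transcripts of every kind (6 of 212 and 6 of 408 cells with over 0.5% member UMIs). Without them, Gngt2 was at 902 ± 120 and 510 ± 83.4 CPM, Gnat2 at 306 ± 11.5 and 148 ± 30.5 CPM and Cngb3 at 182 ± 9.81 and 53.2 ± 28.4 CPM in clusters 12 and 7, while Opn1sw was at 8.34 ± 2.56 and 10.5 ± 12.2 CPM. Cluster 17, a cone bipolar cluster led by Igfn1, held Gngt2 (124 ± 52.8 CPM) with Gnat2 at 9.31 ± 11.8 CPM. The groups of cells come from clustering the same data, so these levels are descriptions with no test.

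**Figure D3:**
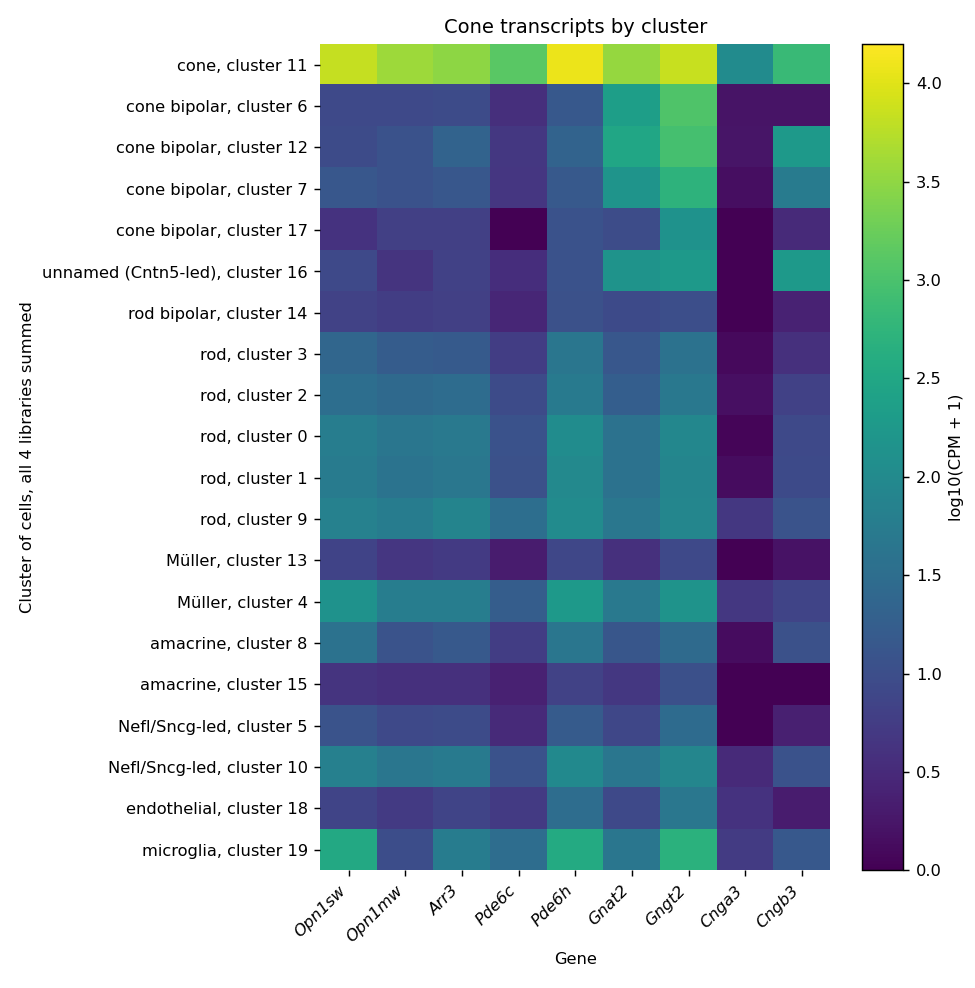
Heat map of log10(CPM + 1) for the 9 members (columns) in the 20 clusters (rows), all 4 libraries summed, with cells over 0.5% member UMIs left out of clusters 6, 7, 12, 16 and 17. The cone row is bright throughout, and among the remaining rows Gngt2, Gnat2 and Cngb3 are bright in bipolar clusters whose opsin columns stay dark. The microglia row holds 1 cell of the NLGF male with over 2% member UMIs.

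Microglia, the resident macrophages, held Gngt2 at 170 CPM in the NLGF female and 340 and 357 CPM in the WT female and male, with Opn1sw at 18.9, 30.9 and 12.3 CPM. The 12 microglia of the NLGF male gave 1771 CPM of Gngt2 together with 2621 CPM of Opn1sw, and 1 of them carried over 2% member UMIs. Abi3 overlaps Gngt2 on the other strand, and whether its reads were kept apart from these was not checked. By the correlation of log2(CPM + 1) over the 10 classes with the mean profile of the members, the closest genes outside the set were Fabp7 (0.983), Gm42697 (0.963), Cckbr (0.963), Otop3 (0.956), 4930458D05Rik (0.949), Agr2 (0.948), Erich6 (0.947) and Gpat3 (0.945). Among the members this value ran from 0.834 (Cngb3) to 0.983 (Pde6c). The microglia of the NLGF male, with their member-rich cell, entered these profiles, and their part in the ranking was not tested. Fabp7 itself was low, at 77.6 CPM in cones and at most 26.6 CPM in another class.

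M-rich cones were then compared with S-rich cones for the genes the class rule did not use, in 8 sums of counts (220 M-rich and 245 S-rich cones over 4 libraries). Arr3 was higher in M-rich cones of all 4 libraries. It had 3346 and 4749 normalised CPM in M-rich cones of the NLGF female and male and 3643 and 4120 in those of the WT female and male, against 2602, 2540, 2428 and 2447 in the S-rich cones of the same libraries, so that the 2 sets did not overlap. The log2 fold change was 0.65 ± 0.07 (SE), with an edgeR quasi-likelihood adjusted p of 7.03e-08. Gngt2 went the other way in all 4 libraries. It had 5698, 6683, 6400 and 8241 normalised CPM in M-rich cones, against 8070, 8384, 7197 and 8932 in S-rich cones, in the library order just used. Its log2 fold change was -0.28 ± 0.07, adjusted p = 0.00846 by edgeR. That call was lost with DESeq2 (adjusted p = 0.21), without the library block (0.19) and without the NLGF female (0.0907), while Arr3 was called in each of its alternatives.

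The other 5 members tested did not pass, and their intervals bound the difference. The log2 fold change, M-rich over S-rich, was 0.01 for Pde6c (95% interval -0.16 to 0.17), 0.03 for Pde6h (-0.09 to 0.15) and -0.14 for Gnat2 (-0.28 to 0.01). It was -0.02 for Cnga3 (-0.35 to 0.32) and -0.05 for Cngb3 (-0.22 to 0.12). Of all 6516 genes tested, 97 (1.49%) were higher and 102 (1.57%) lower in M-rich cones, and the members counted 1 higher and 1 lower of 7. The median log2 fold change was -0.02 over the 7 members and 0.00 over all genes (0.000377). In the test of whether the class difference differed between NLGF and WT, no member was called (edgeR adjusted p from 0.989 to 0.993) and 8 genes were (0.123%).

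Of the 19 other phototransduction genes, none was higher and 2 were lower in M-rich cones. Guca1a, the guanylate cyclase activator, had 3155 ± 223 normalised CPM in M-rich and 4617 ± 207 in S-rich cones (log2 fold change -0.55 ± 0.06, edgeR adjusted p = 1.35e-07). Gnb3, the beta subunit that pairs with Gngt2, had 2315 ± 274 in M-rich and 3119 ± 216 in S-rich cones (-0.43 ± 0.07, adjusted p = 7.84e-05), a call lost after thinning to 1000 UMIs (adjusted p = 0.633).

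Among 12 tested cone and opsin patterning factors, 4 were higher in M-rich cones and none lower. Nr2f2, a nuclear receptor of dorsal retina, had 24.6 to 30.2 normalised CPM in the M-rich sums and 0 to 1.94 in the S-rich ones (log2 fold change 5.09 ± 0.67, edgeR adjusted p = 1.43e-06). Nr2f2 was near the floor in the S-rich sums and passed the low-count filter through the M-rich ones. The p-value and fold change of Nr2f2 are therefore descriptions. Thrb had 510 ± 95.7 in M-rich and 361 ± 41.2 in S-rich cones (0.50 ± 0.09, adjusted p = 0.000338, and 0.0824 with DESeq2). The remaining 2 were the rod factors Nr2e3 (0.90 ± 0.19) and Nrl (0.73 ± 0.20).

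Those moved with the rod transcripts. Of the 11 rod counterparts of the members, 6 were higher in M-rich cones (among them Cnga1, Slc24a1, Pde6a, Gnb1 and Pde6b, log2 fold changes 0.66 to 0.98), and rod arrestin Sag, which mouse cones also make, was lower (-0.41 ± 0.06). Over the 10 rod markers the summed level was 15310 to 32750 CPM in M-rich and 16460 to 21300 CPM in S-rich cones, with 7 markers called higher and 1 lower. Cones over the 1% limit for rod-specific transcripts numbered 18 of the 220 M-rich and 12 of the 245 S-rich cones. Without them none of the 6 rod counterparts, nor Nr2e3 or Nrl, was called, while Arr3, Gngt2, Guca1a, Gnb3, Nr2f2 and Thrb still were.

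The largest differences among genes with at least 50 CPM in cones, in the same direction in all 4 libraries, were outside phototransduction. Higher in M-rich cones were Gm44532 (log2 fold change 4.31), the DNA glycosylase Smug1 (2.62), the Polycomb-associated photoreceptor gene Samd7 (2.30), A930001M01Rik (1.80), the importin Kpna2 (1.64), the apelin receptor ligand Apela (1.46), the co-chaperone Dnaja4 (1.29) and lactate dehydrogenase B, Ldhb (1.24). Smug1 had 292 ± 39.1 normalised CPM in M-rich and 47.2 ± 17.2 in S-rich cones, and Gm44532 had 138 ± 25.3 and 6.59 ± 5.64. Lower in M-rich cones were Ccdc136 (-4.30), 5430419D17Rik (-3.73), the synaptic adhesion gene Nrxn3 (-3.35), Syndig1l (-2.81), Rtl8a (-1.94), the phospholipid synthesis gene Pgs1 (-1.68), Apoe (-1.46) and Vax2os (-1.26), which overlaps the ventral retina factor Vax2 on the other strand. Ccdc136 had 98.9 ± 57.5 normalised CPM in M-rich and 1846 ± 156 in S-rich cones, and it begins 7840 bases from Opn1sw, whose level defined the classes. The level of 5430419D17Rik was 6.44 ± 4.61 in M-rich and 95.9 ± 10.8 in S-rich cones. Gm44532 and 5430419D17Rik were near the floor in the class where they were low and passed the low-count filter through the other. Their p-values and fold changes are therefore descriptions. Apoe is abundant in Müller glia. Of the 9 Müller markers 3 were tested, with a summed level of 229 to 365 CPM in M-rich and 343 to 555 CPM in S-rich cones, and Apoe was the only one called; its part in the result was not tested. Vax2os was not called with DESeq2 (adjusted p = 0.146) or without the cones over the rod limit (0.0693).

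**Figure D4:**
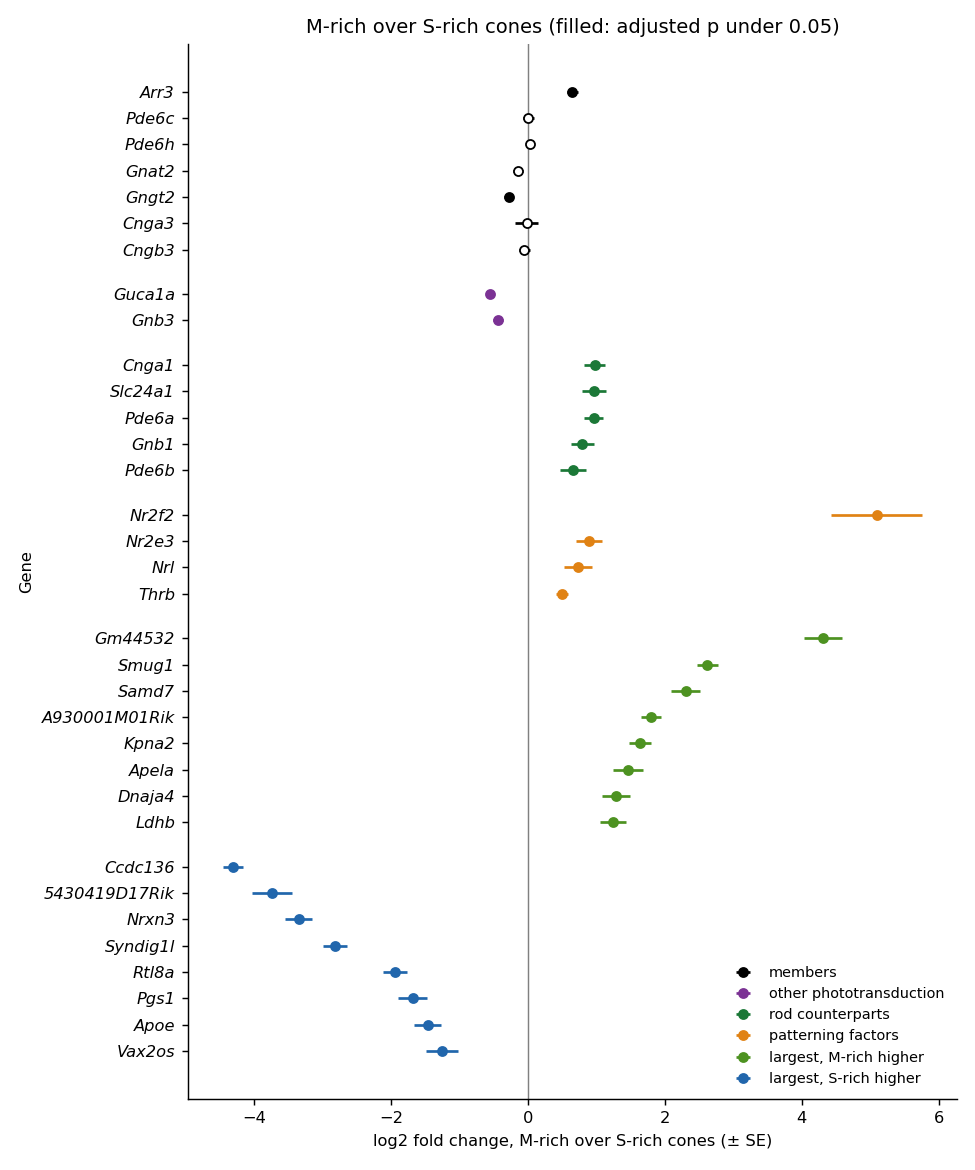
Log2 fold change of M-rich over S-rich cones with its standard error for the 7 tested members and the named genes, grouped by list (edgeR, 4 libraries, library as block). Filled points have an adjusted p under 0.05, which for Nr2f2, Gm44532 and 5430419D17Rik, near the floor in the class where they are low, is a description. Arr3 lies right of 0 at 0.65, Gngt2 left of it at -0.28, and the 5 open points of the other members lie within 0.14 of 0.

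NLGF cones were compared with WT cones to ask whether cone transcripts differ by genotype at this age. None of the 9 members was called, and edgeR called 0 of 9197 genes (0%), with 560 under an unadjusted p of 0.05. DESeq2 also called 0 and had 77 such genes. The count depended on the setting: it was 52 with sex as a replicate block, 22 without the 38 cones over the rod limit, and 36, 76, 34 and 18 without the NLGF female, the NLGF male, the WT female and the WT male. No member was among these calls except Opn1sw, below. Opn1sw had 6463 and 7771 normalised CPM in NLGF cones, against 6253 and 6998 in WT cones, and Opn1mw had 3533 and 4260 in NLGF, against 4081 and 3869 in WT cones (female and male in each case). In both genes the groups overlapped. The log2 fold change was 0.10 ± 0.09 for Opn1sw and -0.03 ± 0.09 for Opn1mw (edgeR adjusted p = 0.91 and 0.985). Without the 38 cones over the rod limit, Opn1sw was called higher in NLGF (0.19, adjusted p = 0.0358).

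Arr3 differed by 0.07 ± 0.09 and Pde6c by -0.08 ± 0.10. Pde6h had 10670 and 11930 normalised CPM in NLGF cones, against 12550 and 12850 in WT cones, so that both NLGF libraries lay below both WT libraries. Its log2 fold change was -0.17 ± 0.07 (95% interval -0.31 to -0.03), with an edgeR adjusted p of 0.776. Gnat2 had 2891 and 3473 in NLGF, against 3607 and 3692 in WT cones, again without overlap (-0.20 ± 0.09, adjusted p = 0.811). These were the 2 of 9 members with both NLGF libraries below, in a table where 17.6% of genes lay that way and 17.7% the opposite way, with 0 of 9 members. Gngt2, Cnga3 and Cngb3 gave -0.09 ± 0.09, -0.06 ± 0.13 and -0.14 ± 0.12. The intervals of the 9 members reached from -0.40 to 0.29. In simulated counts for this comparison 19.2% of 1.5-fold, 60.6% of 2-fold and 92.9% of 4-fold changes were recovered. The changed genes were drawn at random from all 9197 genes tested, so these shares do not measure recovery for the members. The members' own intervals bound their differences.

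**Figure D5:**
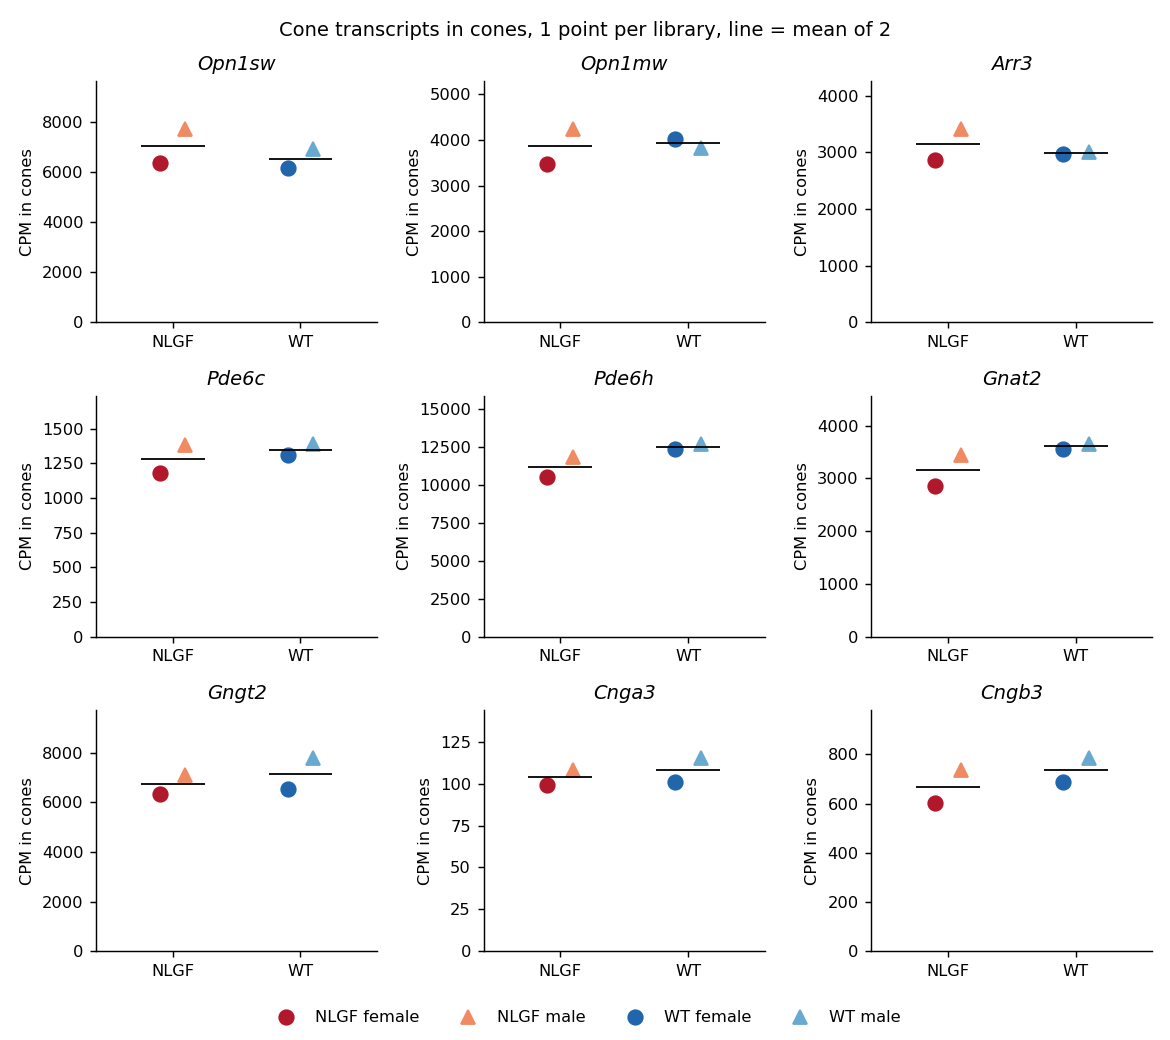
CPM of each member in the cones of each library, on linear axes from 0, with NLGF on the left, WT on the right, circles for females, triangles for males and a line at the mean of 2 libraries. Only Pde6h and Gnat2 have both NLGF points below both WT points.

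None of the related lists had a called gene in NLGF cones, with 0 of 19 other phototransduction genes, 0 of 11 rod counterparts and 0 of 14 tested patterning factors. The median log2 fold change was -0.08 over the members, -0.04 over other phototransduction genes and 0.00 over all genes (0.00232). Over the rod counterparts it was 0.69, and the summed level of the 10 rod markers was 15030 to 26120 CPM in NLGF and 15680 to 20510 CPM in WT cones.

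The opsin classes had M-rich shares of 31.3% (95% Wilson interval 24.1 to 39.6) and 29.1% (22.7 to 36.4) in the NLGF female and male, against 39.5% (32.9 to 46.5) and 35.8% (28.5 to 43.8) in the WT female and male. Both NLGF values lay below both WT values, with overlapping intervals. S-rich shares were 38.8% and 41.8% in NLGF and 32.8% and 40.5% in WT, and mixed shares 29.9% and 29.1% in NLGF and 27.7% and 23.6% in WT. The exact permutation test over the 4 libraries (two-sided) gave p = 0.333 for the M-rich share, which is the smallest p that 2 against 2 can give, 0.667 for the S-rich share and 0.333 for the mixed share. For the share of cones with both opsins it gave 0.667, and for the share of cones among all cells 1.

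Rods were used to read cone transcripts outside cones. Pde6h had 47.2 and 62.4 normalised CPM in NLGF rods, against 89.6 and 67.5 in WT rods, and Gngt2 had 40.4 and 52 in NLGF, against 69.4 and 63.2 in WT rods. Both were lower in each NLGF library than in either WT library, as were Opn1sw, Gnat2 and Cngb3. Opn1mw, Arr3 and Pde6c overlapped. How many of all genes lay without overlap in rods was not counted, so these positions are not a result about the members. Of the 8 members tested none was called (edgeR, 5 of 12374 genes or 0.0404% called), with log2 fold changes from -0.52 ± 0.12 for Gngt2 (adjusted p = 0.474) to 0.08 ± 0.26 for Pde6c. Both genes were called with sex as a replicate block (Pde6h -0.51, Gngt2 -0.52, adjusted p = 7.19e-05 each), a fit with 168 calls against 5. Without the WT male, Opn1mw (-0.50, edgeR adjusted p = 0.0194) and Gnat2 (-0.56, 0.0334) were called as well.

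Over all cells every member had a negative estimate, NLGF over WT, beside 47.95% of all genes. So did 11 of 11 rod counterparts and 17 of 19 other phototransduction genes, so the sign is not particular to the members. Opn1sw and Arr3 turned positive without the WT female (0.02 and 0.04). Gngt2 had 591 and 581 normalised CPM in NLGF libraries, against 704 and 706 in WT libraries, without overlap (log2 fold change -0.27 ± 0.06, edgeR adjusted p = 0.299). Gnat2 had 258 and 268 in NLGF, against 367 and 310 in WT (-0.36 ± 0.09, edgeR adjusted p = 0.299). Pde6h had 865 and 819 in NLGF, against 1181 and 974 in WT (-0.36 ± 0.10, edgeR adjusted p = 0.33). Pde6c, Cnga3 and Cngb3 were also without overlap, while Opn1sw, Opn1mw and Arr3 overlapped. How many of all genes lay without overlap over all cells was not counted, so the lack of overlap is not a result about the members. None of the 9 was called by edgeR, which called 5 of 16153 genes (0.031%). DESeq2, which called 59 genes, called these 3 (Gngt2 adjusted p = 0.0409, Gnat2 0.0367, Pde6h 0.0374), and so did edgeR with no filter. Without the WT male edgeR called Pde6h, Gnat2 and Opn1mw (-0.40, adjusted p = 0.0294). A sum over all cells cannot tell fewer cells of a type from less RNA per cell, and the bipolar clusters add to Gngt2 and Gnat2 here.

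Female cones were compared with male cones because Opn1mw and Arr3 are X-linked. Neither was called. Opn1mw had 3533 and 4081 normalised CPM in the NLGF and WT female, against 4260 and 3869 in the NLGF and WT male (-0.10 ± 0.06, edgeR adjusted p = 0.783), and Arr3 gave -0.12 ± 0.06 (0.626). Of the members, 2 passed with genotype in the fit, both lower in females: Opn1sw at 6463 and 6253, against 7771 and 6998 in males (-0.21 ± 0.05, adjusted p = 0.0087), and Gngt2 at 6444 and 6633, against 7159 and 7847 in males (-0.20 ± 0.05, adjusted p = 0.0223). All 9 members had a negative estimate, beside 51.03% of all genes and 0 of the 11 rod counterparts. The 9 estimates come from the same sums, so their shared sign is not 9 separate results. Opn1mw and Pde6h turned positive without the cones over the rod limit (0.02 and 0.03). Of all genes, 67 of 9197 genes (0.728%) were called higher and 17 (0.185%) lower in females.

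Those 2 calls moved with rod transcripts in the same libraries. Of the 11 rod counterparts 10 were called higher in female cones, including Slc24a1 (2.47), Cngb1 (2.17), Cnga1 (2.10), Gnat1 (2.06) and Gnb1 (1.90), beside the rod factors Nrl (2.004) and Nr2e3 (1.38). The summed level of the 10 rod markers was 20510 to 26120 CPM in female and 15030 to 15680 CPM in male cones. Other phototransduction genes called higher in females included Gucy2f (1.97), Guca1b (0.72) and Cacna2d4 (0.41). Without the cones over the rod limit Opn1sw was at -0.05 and Gngt2 at -0.07, neither called (adjusted p = 0.999 each), and both calls were also lost with DESeq2, without genotype in the fit and with any of the 4 libraries left out.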

How the data were processed

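Retinas of 4 mice were profiled by single-cell RNA-seq, 1 library each. The deposited values are unnormalised UMI counts for each gene in each barcode. The file headers give Cell Ranger 6.1.1; version 3.1.0, STAR and mm10 stand in the submitters' processing notes. How intronic and antisense reads were treated is not given in the sources.

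Barcodes under 300 genes or over 20% mitochondrial UMIs were dropped, leaving 33329. Scrublet's own threshold marked 2 cells, so the top 6% of scores per library were removed (2000 cells). Cells were scaled to 10000 UMIs, log transformed and clustered without the 9 members (scanpy 1.11.5, 2000 variable genes, 30 components, 20 neighbours, Leiden resolution 1). A cluster was named for the marker list with its top mean z-score, among lists with 3 detected markers. A list with more of its markers among the cluster's 10 leading genes took precedence. Clusters with no such leading marker and a z-score under 0.8 stayed unnamed. The 2 clusters led by Nefl and Sncg mixed ganglion and horizontal cell markers. Names rest on markers alone.

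Counts were summed per library and tested with edgeR 4.0.16 (quasi-likelihood test, TMM, filterByExpr, Benjamini-Hochberg over all genes tested, threshold 0.05); normalised CPM uses the TMM factors. Genotype was the only term for NLGF over WT, library the block for M-rich over S-rich (both opsins left out of the counts), and genotype and sex the terms for female over male. Labels do not pair the animals across genotypes other than by sex. Alternatives included DESeq2 1.42.0, no filter, sex as a block, thinning and leaving out each library. Leaving out the rod-heavy cones, or member-rich bipolar cells, was chosen after seeing the data. The edgeR test was tested on simulated counts with 200 genes changed. Members, lists and markers were chosen with earlier results of these data known. Genes outside the 9 members were named by rule: up to 6 called genes per list, the 8 largest called changes per direction (M-rich over S-rich) and the 8 most similar class profiles; a few of these are not reported here.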

Additional observations from a re-analysis of the deposited data

Results flagged for a closer look

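The effect of NLGF on Opn1mw in cones had opposite signs in the sexes. The log2 ratio of NLGF over WT was -0.21 in females (3533 normalised CPM in NLGF and 4081 in WT) and 0.14 in males (4260 in NLGF and 3869 in WT), a difference of -0.35, females minus males. Arr3 showed the same pattern, with -0.05 in females (2915 in NLGF and 3012 in WT) and 0.18 in males (3429 in NLGF and 3037 in WT), a difference of -0.22. Each value compares 1 NLGF with 1 WT animal, so the difference between sexes was not tested.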

How the results depend on the processing

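With 2 animals per genotype, sex and animal cannot be told apart, and Cnga3 is limited by depth. Leaving out 1 library leaves a lone sample that is assumed to vary like the others. The causes of the changes below were not tested. Counts are genes called; member values are log2 fold changes and were not called unless said.

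For NLGF over WT in cones 0 genes became 1 with no filter, 52 with sex as a replicate block, 2 with doublets kept, 22 without rod-heavy cones, and 18 (without the WT male) to 76 (without the NLGF male) with a library left out. Opn1mw turned to 0.00094 after thinning and Cnga3 to 0.0040 without rod-heavy cones. With a library left out the ranges were -0.032 to 0.23 for Opn1sw, -0.17 to 0.095 for Opn1mw, -0.050 to 0.18 for Arr3, -0.19 to 0.019 for Pde6c, -0.21 to 0.035 for Gngt2 and -0.15 to 0.032 for Cnga3.

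In rods 5 genes became 3 with DESeq2, 106 with no filter, 168 with the sex block and 14 to 1041 with a library left out, the last without the WT female. Arr3 ranged from -0.34 to 0.13 and Pde6c from -0.29 to 0.53. Pde6h and Gngt2 in rods were called with no filter, with the block and without the NLGF male, WT female or WT male, and Opn1mw (-0.498) and Gnat2 (-0.558) without the WT male. Over all cells 5 became 59 with DESeq2, 212 with no filter, 0 with the block and 8 to 96 with a library left out. Opn1sw ranged from -0.14 to 0.0197 and Arr3 from -0.25 to 0.041. Pde6h and Gnat2 were called with DESeq2, with no filter and without the WT male, Gngt2 with DESeq2 and with no filter, and Opn1mw (-0.395) without the WT male.

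For M-rich over S-rich cones 199 genes became 15 after thinning, 56 with DESeq2, 127 with no replicate block and 128 (without the NLGF female) to 177 with a library left out. Split at 0.5, Pde6c gave -0.037 and Pde6h -0.00100. Cnga3 gave 0.11 with limits of 0.9 and 0.1 and 0.052 without rod-heavy cones. Cngb3 gave 0.033 after thinning and 0.013 without rod-heavy cones. With a library left out Pde6c ranged from -0.088 to 0.12, Cnga3 from -0.30 to 0.14 and Cngb3 from -0.11 to 0.032.

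For female over male cones 84 genes became 13 with DESeq2, 32 with no replicate block, 11 without rod-heavy cones and 18 to 75 with a library left out, the fewest without the WT male. Without rod-heavy cones Opn1mw gave 0.0196 and Pde6h 0.031. With a library left out Opn1mw ranged from -0.196 to 0.0082, Pde6h from -0.21 to 0.021 and Gnat2 from -0.30 to 0.012.

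The mixed share, NLGF minus WT, was -0.825 percentage points after thinning. With a library left out the S-rich share ranged from -0.225 to 7.5 and the cone share from -0.43 to 0.16, the reversals coming without the WT female. In cluster 12 leaving out member-rich cells gave 902 CPM of Gngt2, 306 of Gnat2 and 182 of Cngb3. Over the members' alternatives, 297 values kept direction and side of the threshold, 30 changed sign, 22 passed and 17 ceased to pass.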

Other observations

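App, the gene that carries the NLGF allele, differed between opsin classes in libraries of both genotypes. It had 4.59 and 5.25 normalised CPM in M-rich cones of the NLGF female and male and 4.62 and 0 in those of the WT female and male, against 79.5, 71.3, 57.1 and 42.7 in the S-rich cones of the same libraries. The log2 fold change was -4.01 ± 0.38 (edgeR adjusted p = 1.39e-09), lower in 4 of 4 libraries. App stood near the floor in M-rich cones and passed the low-count filter through the S-rich sums, where it is high. The p-value and the size of the fold change are therefore descriptions. It was called in all 9 alternatives that tested it, which share this limit. App was chosen after its values were seen, as were the following genes. The T-type calcium channel gene Cacna1h had 3.73 ± 1.46 in M-rich and 77.9 ± 16.1 in S-rich cones (-4.34 ± 0.35, adjusted p = 2.72e-11). The calcium-binding protein gene Cabp5 had 4.9 ± 3.59 in M-rich and 74.2 ± 30.6 in S-rich cones (-3.81 ± 0.34, edgeR adjusted p = 2.39e-10). The cytokine signalling inhibitor Socs3 had 4.21 ± 3.59 in M-rich and 49.9 ± 12.8 in S-rich cones (-3.32 ± 0.41, edgeR adjusted p = 4.11e-07). Cacna1h, Cabp5 and Socs3 were near the floor in M-rich cones too, with the same limit as App. The zinc finger gene Zfhx4 was higher, at 69.8 ± 11.9 in M-rich and 17.1 ± 3.5 in S-rich cones (2.04 ± 0.26, adjusted p = 8.55e-07). Cabp5 and Zfhx4 were the 2 tested genes among the 8 listed cone bipolar markers, whose summed level was 55.1 to 90.5 CPM in M-rich and 49.7 to 115 CPM in S-rich cones.

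Among genes that overlap members on the other strand, Calu and Abi3, chosen after their values were seen, were lower in M-rich cones. Opn1sw is low there by the class rule and was not tested, so Calu cannot be set beside it as a matching result. Gngt2 was lower there too, a call lost in some alternatives. Calu was called in 5 and Abi3 in 8 of their 10 alternatives. Calu, beside Opn1sw, was at -0.66 ± 0.18 (edgeR adjusted p = 0.03) and Abi3, beside Gngt2, at -1.06 ± 0.24 (adjusted p = 0.00496), M-rich over S-rich, and neither was called by DESeq2 (0.988 and 0.462).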
